A study of Mus musculus with 2 samples.

Results

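Elongating spermatids of the Tnp2 stage were followed in testis of WT and Alkbh5-/- (KO) mice, at single-cell resolution. A barcode, the sequence tag that marks the RNA of 1 captured cell, was a member when Tnp2, Tex37 and Cstl1 (set H) had the highest mean z-score among 10 sets of 3 marker genes and fewer than 2 of 10 markers of somatic cells and early germ cells were detected in it. By this rule 1075 of 12768 barcodes were members, 650 of 5756 in the WT library and 425 of 7012 in the KO library. The z-scores were those of ln(1 + UMIs per 10000) of each gene, so the levels of these 3 genes selected the members and are given only as a description.

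All mice were 12-week-old C57BL/6, and the KO animals, bred from heterozygous parents, lacked Alkbh5 in the whole body. Alkbh5 encodes a demethylase of N6-methyladenosine (m6A) in RNA. The study made 1 library per genotype. Its introduction describes 1 animal per genotype and its methods describe 3, so a library may pool animals, and genotype and library cannot be told apart in any difference given here. Values are counts of unique molecular identifiers (UMIs), summed over the members of a library and expressed per 1000000 of these UMIs (CPM), and their intervals are exact 95% intervals that cover counting error only.

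In an elongating spermatid the nucleus condenses and changes shape while the tail, the acrosome and the mitochondrial sheath are built. Histones are exchanged first for transition proteins, of which Tnp2 encodes one, and then for protamines. Transcription shuts down during this exchange, so that many proteins of the late spermatid are made from mRNA that was stored earlier in complexes with RNA-binding proteins such as the Y-box proteins. X-linked genes are silenced in spermatocytes and only partly switched on again in spermatids, and cytoplasmic bridges let sister spermatids share transcripts.

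The members held 7180118 UMIs in WT and 4373104 in KO, and 3 UMIs, the least that was treated as measurable, were worth 0.418 and 0.686 CPM. Median depth per member was 9524 UMIs in WT and 8655 in KO, with 1802 and 1817 genes detected, so the libraries were close in depth per cell. Alkbh5 itself had 607 UMIs in the whole WT library and 5 in the KO library. In the members it had 6 UMIs in WT and 0 in KO, with an exact upper limit of 0.844 CPM, and its level at this stage was therefore at the limit of what the depth could show in either genotype. The libraries shared 45 barcode sequences, 7 of which were members in WT and 1 in KO, and no shared sequence was a member in both.

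The share of members among barcodes that passed the gate of excluded markers was 12.1% (11.2 to 13) in WT and 9.93% (9.05 to 10.9) in KO. The ratio of KO to WT was 0.824 (0.727 to 0.933). Counting error alone did not cover this difference, but with no excluded marker allowed the ratio was 0.937 (0.80 to 1.09). The stage before was nearly level, since the Prss58 stage (set G) held 10.9% of WT and 10.8% of KO barcodes, a ratio of 0.985 (0.870 to 1.11). The later stages had lower ratios, with 12.3% and 5.52% in the Klk1b8 stage (set I, ratio 0.450) and 12.1% and 4.98% in the Spem1 stage (set J, ratio 0.412). The gate removed 365 WT and 2734 KO barcodes, and over all barcodes the ratio for the members was 0.537. A smaller share of one stage and a larger share of others cannot be told apart from these numbers.

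**Figure D1:**
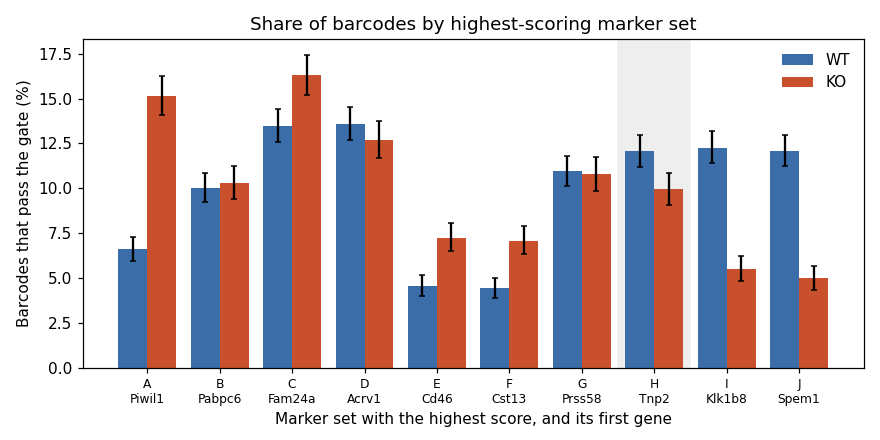
Percent of gate-passing barcodes (y axis) whose highest score was that of each of the 10 marker sets (x axis, with the first gene of each set), in WT and KO, with exact 95% binomial intervals. The grey band marks the Tnp2 stage, where 12.1% of WT and 9.93% of KO barcodes fell, while the KO bars of the sets to its right are 5.52% and 4.98%.

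Tnp2 had a UMI in 650 of 650 WT members and 425 of 425 KO members. The median WT member held 253.5 Tnp2 UMIs, with 5% of cells under 123, and the median KO member held 214. Tnp2 was at 26924 CPM in WT and 24911 CPM in KO, the highest of the 10 stages in both libraries, against 21405 and 20573 CPM in the Prss58 stage and 20463 and 17324 CPM in the Klk1b8 stage. Tnp2 UMIs were also found in other barcodes, since 75.6% of the gate-failing WT barcodes and 53.0% of the gate-failing KO barcodes had at least 1, with a median of 2 and 1 UMIs at median depths of 9529 and 8142.5 UMIs. Tex37 was at 2764 CPM in WT members and 2339 CPM in KO members, and Cstl1, a gene of the cystatin family of protease inhibitors, at 1072 and 1122 CPM. The stage border was gradual. In WT 199 members led by less than 0.1 in score and 182 barcodes missed by less than 0.1, and these had 26118 and 26193 CPM of Tnp2. In KO the corresponding 111 and 103 barcodes had 23307 and 23289 CPM.

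The members were not uniform. The set that came next after H was J in 272 WT and 156 KO members, I in 192 and 112, and G in 167 and 137, and another set in the remaining few. Members closest to G made up 25.7% (22.4 to 29.2) of WT and 32.2% (27.8 to 36.9) of KO, and those closest to J 41.8% (38.0 to 45.7) and 36.7% (32.1 to 41.5), so the mixtures were alike but not equal. Calls were therefore also computed within these 3 kinds of member.

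Among genes outside the rule with a UMI in at least 25% of members of each library, 10 had the largest excess over other gate-passing barcodes. They were Tnp1, Cby3, Gm4665, Ppp1r2-ps7, Foxo3, Tfam, Defb33, Hmgb1-rs17, Hmgb4 and 1700034E13Rik. Tnp1, the other transition protein gene, was 3.86 times higher in members in WT and 4.34 times in KO. Tfam, which encodes the packaging protein of mitochondrial DNA, was 3.43 and 3.89 times higher, and Hmgb4, a testis member of the HMG box family, 3.23 and 3.41 times. Over the 20 levels of the 10 stages in both libraries, the log2 levels of Hmgb1-rs17 followed those of Tnp2 most closely (Pearson r = 0.995), then came Tnp1 (0.994) and AL513352.1 (0.993), and Tfam and Cby3 stood at 0.992. These 20 points share libraries and neighbouring cells, so the coefficients describe a shape and carry no p-value.

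The transcripts of the histone to protamine exchange were nearly level between genotypes. Prm1, which encodes the protamine of all mammalian sperm, took 15.3% of all UMIs of WT members and 13.6% of those of KO members. Its log2 ratio of KO to WT was -0.17 (-0.17 to -0.16). Prm2 was at 44267 CPM in WT and 40027 CPM in KO (log2 ratio -0.15), Tnp1 at 17916 and 15472 CPM (-0.21), and Tnp2 differed by -0.11 on the log2 scale. Tnp2 is among the genes that selected the members, so its value is a description. Tnp1, Prm1 and Prm2 followed Tnp2 over the 20 levels of stages and libraries (r = 0.994, 0.986 and 0.963). Their near-equal levels in members are therefore not independent of the selection. Of the list of transition proteins and protamines, which has 5 genes with Tnp2, Prm3, beside the protamine genes on chromosome 16, was the only one past the size criterion, with 3920 CPM in WT and 2888 CPM in KO (-0.44, -0.47 to -0.41).

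A gene was tested against a size criterion when 25% or more of the members of at least 1 library held a UMI of it, and was past the criterion with a difference of at least 0.25 in ln(1 + mean UMIs per 10000). The criterion takes the place of a test, which 1 library per genotype does not allow. Of 2441 genes tested, 156 were higher in KO (6.39%) and 52 were lower (2.13%), together 8.52%, and these percentages are the background for the counts that follow. The median log2 ratio of the 2441 genes was 0.005, so the centre of the comparison lay at equal levels. Calls higher in KO overlapped between kinds of member: 129 of the 156 were also called among members closest to G, 134 among those closest to I and 136 among those closest to J, and of the 52 lower genes 40, 38 and 46 were.

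X-linked genes were higher in KO members as a group. All 87 X-linked genes tested had a log2 ratio above 0, 62 of them (71.3%) were past the size criterion and none was lower, with a median log2 ratio of 1.13. Of 2296 autosomal genes, 83 (3.61%) were higher, 51 were lower and the median was -0.01. No autosome had a median outside the range from -0.08 to 0.09. X-linked genes thus made up 39.7% of all genes called higher. Genes were grouped by chromosome only after these values had been seen.

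**Figure D2:**
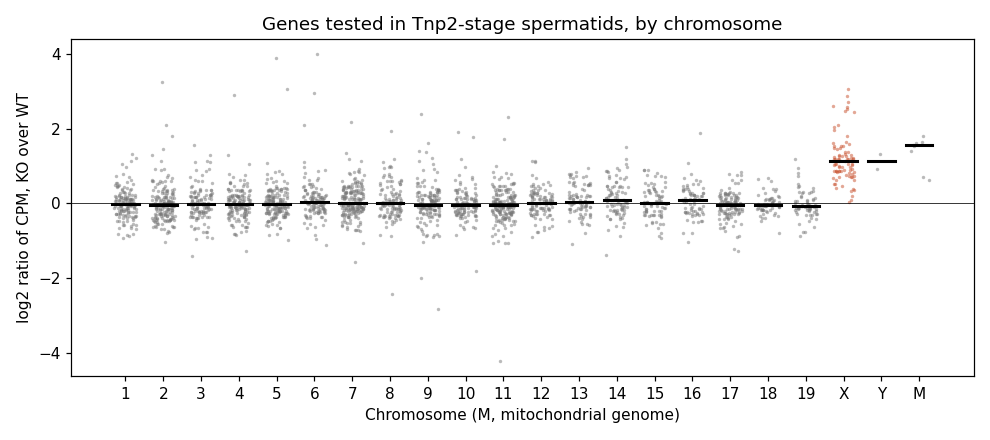
Log2 ratio of CPM, KO over WT (y axis), of each tested gene with a known position, by chromosome (x axis), with a bar at the median. The X chromosome has a median of 1.13 with every point above 0, the autosomes have medians between -0.08 and 0.09, and the mitochondrial genome (M) stands at 1.56.

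The same held for the sum of all X-linked UMIs. X-linked genes gave 2.56% (2.55 to 2.57) of the UMIs of WT members and 4.89% (4.87 to 4.91) of those of KO members, a ratio of 1.91 (1.90 to 1.92). Cell by cell the libraries overlapped little, since 75% of WT members had less than 2.73% X-linked UMIs and 95% of KO members had more than 3.55%, with medians of 2.55% and 4.77%. Within kinds of member the median log2 ratio of these 87 genes was 1.08 closest to G, 1.11 closest to I and 1.10 closest to J, with 87, 86 and 86 of them above 0. The direction was also counted under other filters on low values. Among genes with at least 10 UMIs in the pair of sums, 365 of 390 X-linked genes (93.6%) were above 0 against 6855 of 11256 autosomal genes (60.9%). With a filter on WT cells alone, 65 of 65 X-linked genes were above 0, with a median of 1.05, and 973 of 2154 autosomal genes, with a median of -0.03. Many X-linked testis genes have near-identical copies, between which reads may be split in counting. Leaving out non-coding genes and families recognizable by symbol left 36 X-linked genes, all above 0, of which 16 were past the criterion, with a median of 0.86.

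The excess of X-linked UMIs was present at every stage. In WT the X-linked share was 0.205% in set A, 1.94% in set D, 2.74% in set G, 2.35% in set I and 2.09% in set J, and in KO it was 0.767%, 3.44%, 5.22%, 4.21% and 3.70%. The ratio of the shares at the Tnp2 stage, 1.91, therefore lay among those of the other 9 stages, which ran from 1.48 in set C to 3.74 in set A. For the same 87 genes the median log2 ratio was 1.05 in set G and 1.07 in set I. Among gate-failing barcodes, which mix somatic cells with germ cell RNA, it was -0.03, while the autosomal genes stood at -0.74.

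**Figure D3:**
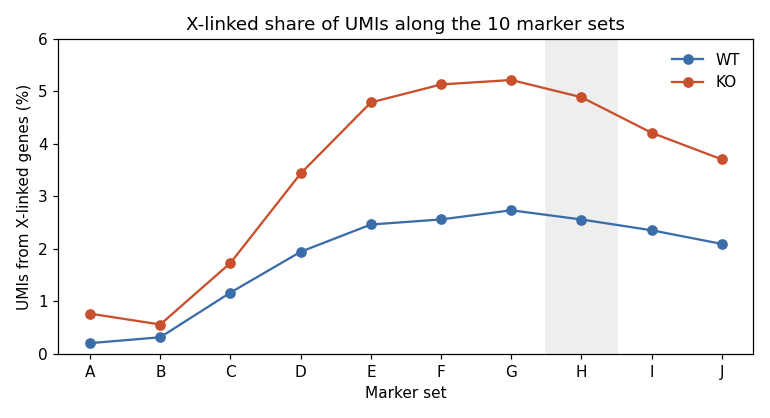
Percent of UMIs from X-linked genes (y axis, from 0) in the summed barcodes of each marker set (x axis), in WT and KO. The KO line lies above the WT line at all 10 sets, and at the Tnp2 stage (grey band) the values are 4.89% and 2.56%.

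Akap4 and H2afb1, the most abundant pair of X-linked genes in WT members, differed little. Akap4, the main protein of the fibrous sheath of the sperm tail, was at 3059 CPM in WT and 3480 CPM in KO, a log2 ratio of 0.19 (0.16 to 0.22), and the histone variant gene H2afb1 was at 2349 and 2500 CPM (0.09). Neither passed the criterion. Hypm, which encodes a partner of huntingtin, was at 1373 and 2145 CPM (0.64, called higher). Of long non-coding RNAs, 1700010D01Rik was at 1060 CPM in WT and 2488 CPM in KO (1.23), and BC061195 at 467 and 1463 CPM (1.65), both called higher. Both Y-linked genes tested also lay above 0. Sly, a multicopy gene whose protein is known to hold down sex chromosome genes in spermatids, had 130 UMIs in WT and 150 in KO (0.92, 0.57 to 1.27), and Tspy-ps, a pseudogene, had 157 and 241 (1.33, 1.04 to 1.63), neither past the criterion.

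The Cypt genes, which encode small basic proteins of the spermatid nucleus with a cysteine-rich, protamine-like make-up, showed the split by chromosome within 1 family. Of 11 Cypt genes listed, 7 had at least 10 UMIs and all 7 were tested. All 7 had a log2 ratio above 0, and the 5 that passed the criterion were the 5 on the X chromosome. Cypt1 was at 1321 CPM in WT and 3068 CPM in KO (log2 ratio 1.22, 1.18 to 1.25), Cypt3 at 1372 and 2814 CPM (1.04) and Cypt14 at 67.1 and 132 CPM (0.98). Cypt2 was at 115 and 640 CPM (2.48, 2.37 to 2.59), and Cypt15 at 60.2 and 367 CPM (2.61, 2.46 to 2.77). The autosomal members, Cypt4 on chromosome 9 and Cypt12 on chromosome 3, had ratios of 0.36 (0.29 to 0.42) and 0.03 (-0.01 to 0.07).

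The promoters of the Cypt genes are shown because X-linked genes called higher and 1 autosomal gene that was not share a stretch just before the start site. The sequences are those of RefSeq on GRCm38.p6, 250 bases before to 50 bases after the start, and capitals mark the longest run common to Cypt1, Cypt2, Cypt3 and Cypt15, of 18 bases.
Cypt1, chrX:16522619-16522918, plus strand: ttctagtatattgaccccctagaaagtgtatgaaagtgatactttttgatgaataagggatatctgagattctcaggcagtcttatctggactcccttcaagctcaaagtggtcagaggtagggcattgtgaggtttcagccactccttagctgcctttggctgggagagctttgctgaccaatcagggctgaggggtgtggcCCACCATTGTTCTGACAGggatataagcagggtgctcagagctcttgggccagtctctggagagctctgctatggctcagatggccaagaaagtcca
Cypt2, chrX:105499522-105499821, plus strand: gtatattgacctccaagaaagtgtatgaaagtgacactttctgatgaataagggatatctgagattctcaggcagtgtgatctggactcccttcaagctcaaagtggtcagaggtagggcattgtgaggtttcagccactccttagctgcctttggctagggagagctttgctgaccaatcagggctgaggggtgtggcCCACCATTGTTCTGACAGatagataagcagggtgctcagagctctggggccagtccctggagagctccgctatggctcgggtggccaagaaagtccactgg
Cypt3, chrX:153558343-153558642, plus strand: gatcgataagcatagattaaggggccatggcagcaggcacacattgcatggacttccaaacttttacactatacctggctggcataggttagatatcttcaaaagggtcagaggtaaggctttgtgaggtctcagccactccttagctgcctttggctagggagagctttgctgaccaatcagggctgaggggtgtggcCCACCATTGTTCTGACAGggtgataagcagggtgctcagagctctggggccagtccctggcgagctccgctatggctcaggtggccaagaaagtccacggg
Cypt15, chrX:39346016-39346315, plus strand: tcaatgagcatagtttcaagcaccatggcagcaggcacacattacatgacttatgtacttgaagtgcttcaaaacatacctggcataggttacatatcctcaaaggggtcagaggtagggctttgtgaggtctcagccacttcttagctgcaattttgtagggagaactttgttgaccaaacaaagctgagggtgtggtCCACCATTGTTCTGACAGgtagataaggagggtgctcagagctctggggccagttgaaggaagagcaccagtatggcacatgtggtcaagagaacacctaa
Cypt4, chr9:24624935-24625234, plus strand: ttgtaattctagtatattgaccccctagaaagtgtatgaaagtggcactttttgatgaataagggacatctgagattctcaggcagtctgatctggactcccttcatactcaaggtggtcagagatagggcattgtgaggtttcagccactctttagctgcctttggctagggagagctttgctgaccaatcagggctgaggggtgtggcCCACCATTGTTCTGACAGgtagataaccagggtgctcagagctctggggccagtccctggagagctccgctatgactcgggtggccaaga
The run began 51 bases before the start site in Cypt2, Cypt3 and Cypt15, 47 in Cypt1 and 40 in Cypt4. Of 32851 RefSeq promoters of this length, 6 held it, those of Cypt1, Cypt2, Cypt3, Cypt4, Cypt14 and Cypt15. Cypt4 carried the same letters as the X-linked genes at a log2 ratio of 0.36, and Cypt12, at 0.03, was not among the 6. The 7 Cypt promoters in the search also shared another run, of 17 bases. What either run does was not tested. Because the genes are alike, reads may also be assigned to the wrong copy.

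Other gene pairs with 1 X-linked and 1 autosomal member were picked after their values had been seen. Cylc1, on the X chromosome, encodes cylicin, a protein of the sheath around the nucleus, and was at 297 CPM in WT and 652 CPM in KO (1.13, called higher), while the autosomal Cylc2 was at 705 and 736 CPM (0.06). Actrt1 had a ratio of 0.86 and the autosomal Actrt2, an actin-related protein of the same structure, -0.04. Tcp11x2 stood at 1.19 and Tcp11 at -0.10, and Rnf138rt1 at 0.91 against -0.18 for Rnf138. There were exceptions, as Cetn1 on chromosome 18 had a ratio of 0.66 and was called, against 0.83 for the X-linked Cetn2, which was not. Ppp1r2-ps3 on chromosome 19 had 0.82, close to the 0.80 of Ppp1r2-ps7 on the X chromosome.

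Among histone variants of the late spermatid, calls were mostly X-linked. Of 26 measured genes of the list of histone variants and HMG proteins, 23 lay above 0, with a median of 1.04 against 0.19 over all 11932 genes with at least 10 UMIs. Of its 11 tested genes, 6 were called higher and none lower, and their median was 0.69 against 0.005 over all 2441. Of these, 5 were X-linked genes of the H2A.L family, replacement histones that enter chromatin together with the transition proteins. H2al3 was at 614 CPM in WT and 1720 CPM in KO (1.49, 1.43 to 1.54), and H2al1n at 165 and 481 CPM (1.55), with H2al1k at 1.29, H2al1b at 1.18 and H2al1m at 0.69. Copies of H2al1 are nearly alike, so which of them gave the UMIs is uncertain. H3f3b, an autosomal gene of histone H3.3, was the remaining call (0.81), and its level was over 5 times higher in gate-failing barcodes. Its direction was not the same in all kinds of member, with 0.74 closest to G, 0.94 closest to J and -0.27 (-0.75 to 0.20) closest to I. The spermatid linker histones were level. Hils1 was at 1995 and 1909 CPM (-0.06) and H1fnt at 1274 and 1104 CPM (-0.21), as was Hmgb4, at 10390 and 10675 CPM (0.04). Of the list of histone removal and chromatin remodelling, 1 of 7 tested genes was called, against 8.52% of all tested genes. This was Cdyl (0.73), which encodes a chromodomain protein. Of its 32 genes with at least 10 UMIs, 22 lay above 0 and 10 below. Their median was 0.61, against 0.19 over all genes, and ranged from -0.17 to 0.88 under the alternatives. Below 0 lay Psme4, the proteasome activator that acts on acetylated histones, at 184 and 164 CPM (-0.16). So did Chd5, a remodeller needed for the exchange, at 54.0 and 45.5 CPM (-0.25).

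The letters TGATGTCA differ in 1 base from TGACGTCA, the cyclic AMP response element, through which the spermatid factor CREM is known to act. Promoters that hold them are represented by Tnp1, level between genotypes, and H2al3, higher in KO. Capitals mark the motif on either strand.
Tnp1, chr1:73015850-73016149, minus strand: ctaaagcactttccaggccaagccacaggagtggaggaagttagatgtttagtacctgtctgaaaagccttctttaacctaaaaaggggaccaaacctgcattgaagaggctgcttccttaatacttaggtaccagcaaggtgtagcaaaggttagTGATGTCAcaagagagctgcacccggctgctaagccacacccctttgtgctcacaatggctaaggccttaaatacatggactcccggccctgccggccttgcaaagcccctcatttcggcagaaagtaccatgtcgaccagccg
H2al3, chrX:9849453-9849752, plus strand: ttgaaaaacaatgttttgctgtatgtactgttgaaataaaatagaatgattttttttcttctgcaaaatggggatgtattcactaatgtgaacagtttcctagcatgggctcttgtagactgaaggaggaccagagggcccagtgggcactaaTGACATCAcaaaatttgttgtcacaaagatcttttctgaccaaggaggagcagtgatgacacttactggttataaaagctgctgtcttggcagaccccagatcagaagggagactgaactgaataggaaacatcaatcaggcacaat
TGATGTCA was found on 1 of the strands in 3.62% of all 32851 promoters, in 5.58% of the 2401 promoters of tested genes, in 13 of 125 (10.4%) of genes called higher and 2 of 50 of genes called lower, and in 8 of the 49 promoters (16.3%) of X-linked genes called higher. These were the promoters of H2al3, Cylc1, Tmsb15a, Tmsb4x, Gm5941, Gm14725, 1700010D01Rik and 4930567H17Rik. The full element TGACGTCA was in 1.79% of all promoters and 3.67% of those of tested genes. It was in 0 of 125 promoters of genes called higher and 1 of 50 of genes called lower. Of the 49 promoters of X-linked genes called higher 0 held it, and 49 are too few to tell 0 from 3.67%. X-linked genes that were not called were not counted apart. The 16.3% therefore cannot be separated from the share among X-linked genes at large. The motifs cannot both match at 1 position, and the matches describe letters only.

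Of the tested genes of the RNA storage list, a pair of Y-box genes had the largest ratios. Ybx1, on chromosome 4 from 119277981 to 119294604 (GRCm38), encodes a protein that binds mRNA and DNA, and had 948 UMIs in WT members and 4348 in KO members. This was 132 CPM and 994 CPM, a log2 ratio of 2.91 (2.81 to 3.02). A Ybx1 UMI was found in 43.4% of WT members (39.5 to 47.3) and 93.9% of KO members (91.2 to 96.0), and the median cell had 0 and 8 UMIs. Gate-failing barcodes stood at 587 and 568 CPM of Ybx1. Ybx3, on chromosome 6, had 447 UMIs in WT and 1160 in KO, or 62.3 and 265 CPM (2.09, 1.93 to 2.25), and was found in 33.2% and 74.8% of members. Ybx2, which encodes the germ cell Y-box protein that stores mRNA, was level, with 2672 and 1645 UMIs (0.02).

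The ratio of Ybx1 was larger at this stage than at the stages before it. In set F the libraries were level, with 1180 CPM in WT and 1173 CPM in KO. WT had 814 CPM in set G and 132 CPM in the members, a log2 step of -2.62 (-2.72 to -2.53), while KO had 1214 and 994 CPM, a step of -0.29 (-0.34 to -0.23). From the members to set I the steps were -0.86 in WT and -1.10 in KO. Ybx3, already higher in KO at sets B to G, had a step of -1.88 (-2.03 to -1.73) in WT and -0.54 (-0.64 to -0.44) in KO. Shallower steps in KO were not limited to the Y-box genes. Odf3 had steps of -2.55 in WT and -1.44 in KO, Prss52 of -2.55 and -1.77, and Cdyl of -2.45 and -1.80. Hils1, a transcript that also ends here, had nearly equal steps of -1.34 and -1.25, as had Cypt12 (-1.37 and -1.30). Of 2440 genes, 234 were at least 2-fold lower in the members than in G in WT and 128 in KO. Within kinds of member the Ybx1 ratio was 2.46 (2.30 to 2.62) closest to G, 3.42 closest to I and 3.85 (3.63 to 4.08) closest to J. In the last kind, WT had 63.8 CPM and KO 921 CPM.

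**Figure D4:**
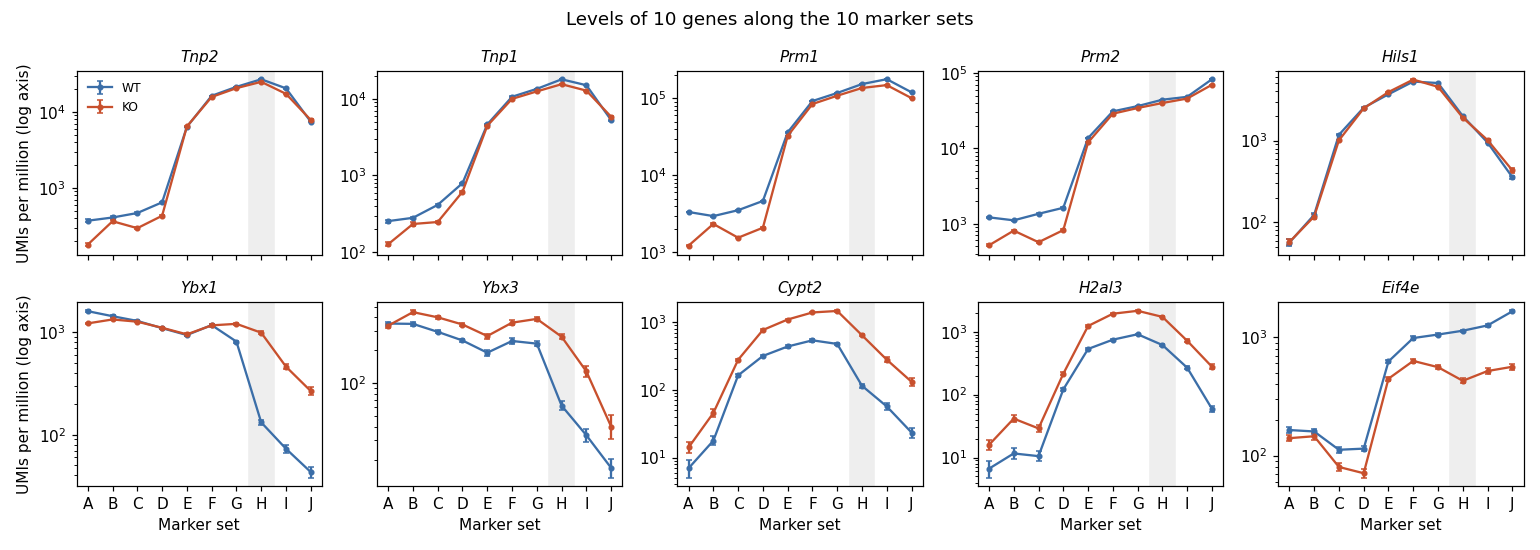
CPM (y axis, log scale) of 10 genes in the summed barcodes of each marker set (x axis) in WT and KO, with exact 95% Poisson intervals, and a grey band at the Tnp2 stage. Tnp2, Tnp1, Prm1, Prm2 and Hils1 run together in the later sets, while Ybx1 and Ybx3 stand farther apart at the Tnp2 stage than before it, Cypt2 and H2al3 are higher in KO at every set, and Eif4e is lower in KO at every set.

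Cypt2 and Cypt15 were higher in KO at all sets and also had unequal steps. Cypt2 had 477 CPM in set G and 115 CPM in the members in WT (step -2.05), and 1463 and 640 CPM in KO (step -1.19), and Cypt15 had steps of -1.95 and -1.03. Cst13, a cystatin gene that the rule used for set F, had 961 and 72.6 CPM in WT and 1012 and 200 CPM in KO, and its ratio in members was 1.46 (1.30 to 1.62). Smco2 had 63.2 and 24.2 CPM in WT and 207 and 190 CPM in KO (2.97 in members, 2.74 to 3.22).

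Eif4e was the most abundant of the genes lower in KO by a large ratio. It encodes the protein that binds the mRNA cap to start translation, and had 8152 UMIs in WT and 1874 in KO, or 1135 and 429 CPM, a log2 ratio of -1.41 (-1.48 to -1.33). The median cell had 11 and 4 UMIs, and a UMI was found in 99.8% and 94.1% of members. Its level in WT was 115 CPM in set D and 1655 CPM in set J, and in KO 71.0 and 563 CPM. The ratio was alike in members closest to G (-1.34), I (-1.46) and J (-1.44). In the list of RNA storage and translation control, which also holds the Y-box genes, 4 of 23 tested genes were called, Ybx1 and Ybx3 higher, Eif4e and Larp1 lower. The others included Pabpc1, the poly(A)-binding protein gene (0.03), Ybx2, and Eif1, at 6383 and 5911 CPM (-0.11). Among genes of the m6A machinery, 1 could be tested, Igf2bp3, which encodes a reader of the mark, at 370 and 258 CPM (-0.52, called lower). It went against most of its list. Of 16 such genes with at least 10 UMIs, 14 (87.5%) lay above 0, against 62.0% of all genes. Their median was 0.77, against 0.19 over all genes, and ranged from 0.11 to 1.36 under the alternatives.

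The largest ratios had a fixed naming rule, the 10 in each direction among genes with at least 100 UMIs in the pair of sums. Lower in KO were Galnt10, 1700063D05Rik, Gm10638, Fxyd2, Chpt1, Ptov1, Eif4e, Gm41177, Ccnd3 and Tmem64, with log2 ratios from -4.21 to -1.27. Ptov1, Gm41177 and Ccnd3 were not past the size criterion. Galnt10, an enzyme that starts O-linked glycosylation, had 274 UMIs in WT and 9 in KO (-4.21, -5.36 to -3.27). It lies on chromosome 11 from 57645442 to 57787514 (GRCm38), within 5 Mb of Alkbh5. 4933426K07Rik, annotated on the opposite strand within Galnt10, had 88 UMIs in WT and 267 in KO (2.32, called higher). Of 17 genes tested within 5 Mb of Alkbh5, 4 were called, with Guk1 (-0.86) and Larp1 (-1.06) lower as well. Over all tested genes the share called was 8.52%. Because Galnt10 and 4933426K07Rik overlap, they may not be separate calls. In sets A to C the Galnt10 intervals of WT and KO overlapped, and from set D to set J WT had 10.3 to 59.5 CPM and KO at most 5.27 CPM. 1700063D05Rik, a long non-coding RNA, had 1239 and 107 UMIs (-2.82), and Fxyd2, which encodes a small subunit of the sodium pump, 548 and 84 (-1.99). Chpt1, an enzyme of phosphatidylcholine synthesis, had 509 and 88 (-1.82). Whether counting used the strand is not given in the sources used here, so genes that overlap another on the opposite strand are uncertain.

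Higher in KO were Aldh1l1, Cdk14, Ptgds, 9530051G07Rik, Nptx2, Smco2, Ybx1, 4930567H17Rik, Gm15091 and Cypt15. Nptx2 was not past the size criterion, and the others were. Of these, 4 were X-linked, namely 9530051G07Rik, 4930567H17Rik, Gm15091 and Cypt15. Aldh1l1, an enzyme of folate metabolism, had 18 UMIs in WT and 176 in KO, 16.1 times higher in CPM, with a log2 interval from 3.30 to 4.79. It stood between 38.7 and 74.7 CPM in all 10 KO sets and at no more than 4.71 CPM in all 10 WT sets, and a UMI was found in 40.5% of gate-failing KO barcodes. Cdk14, a cyclin-dependent kinase gene, had 26 and 238 UMIs (3.91, 3.32 to 4.55), with 20.2 and 16.7 CPM in set A and 7.25 and 38.0 CPM in set E. Ptgds, a prostaglandin D synthase gene and a marker of Leydig cells, had 34 and 197 UMIs (3.25), at 45.0 CPM in KO members against 10480 CPM in gate-failing KO barcodes.

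**Figure D5:**
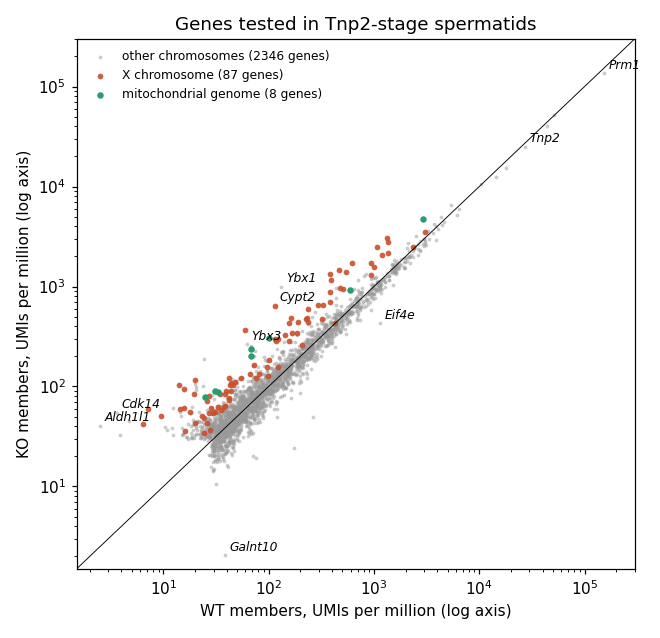
CPM in KO members (y axis) against CPM in WT members (x axis) of the 2441 tested genes, both on log scales, with the line of equality. The 87 X-linked genes and the 8 mitochondrially encoded genes lie on the KO side of the line, and Galnt10, with 38.2 and 2.06 CPM, lies farthest below it.

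All 8 mitochondrially encoded genes tested were called higher, with a median of 1.56. Over the 10 such genes with at least 10 UMIs the median ranged from 0.52, with set H ahead by at least 0.25, to 2.37, with fewer than 3 excluded markers. Their UMIs made up 0.387% of the total in WT members and 0.674% in KO members, and mt-Co1, a subunit gene of cytochrome c oxidase, was at 100 and 309 CPM (1.62, from 0.54 to 2.54 under the same alternatives). The KO share was higher than the WT share at all 10 stages, and 7 of the 8 genes stood over 5 times higher in gate-failing barcodes than in members. Most marker lists of other cells were higher in KO too. The 15 Leydig markers together were at 120 CPM in WT members and 196 CPM in KO members, at 11187 and 23771 CPM in gate-failing barcodes, and the defining gene Insl3 had 6 and 44 UMIs. Timp2 gave 743 of the 860 WT UMIs of that list. The 15 Sertoli markers were at 21.9 and 82.8 CPM, the 15 macrophage markers at 83.4 and 115 CPM, and the 15 markers of spermatogonia and early spermatocytes at 57.0 and 126 CPM. Of the 599 WT and 501 KO UMIs of the macrophage list, Apoe gave 333 and 230, and C1qb, a complement gene that the gate also used, 238 and 82, while Lyz2, a lysozyme gene, had 2 and 50 and Cd74 4 and 52. Amh, Csf1r and Sall4 had 0 UMIs in the members of both libraries, as had C1qa and Rad51ap2, which the gate itself held low. The 5 red blood cell markers had 46 and 4 UMIs. The part of such RNA in the mitochondrial and marker values was not tested. Of the 156 genes called higher, 15 were over 5 times higher in gate-failing barcodes than in members, and 141 were not, among them 61 X-linked genes.

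Most tested genes of the tail, head and acrosome, the structures under construction, were not called. The lists of the fibrous sheath, the head and the acrosome nevertheless lay above the 8.52% called among all tested genes. In the list of the fibrous sheath and outer dense fibre 4 of 15 tested genes were called, Ropn1l (0.58), Odf1 (0.53) and Odf3 (1.13) higher and Oaz3 (-0.37) lower. Odf1, a main protein of the outer dense fibre, was at 288 and 417 CPM, and Oaz3, an antizyme of polyamine synthesis, at 2211 and 1711 CPM. The axoneme, the motor structure of the tail, had 0 of 17 tested genes called, with a median of 0.06 over 75 genes. The mitochondrial sheath had 0 of 13, with Smcp, a protein of its capsule, at 14501 and 12536 CPM (-0.21), and testis energy enzymes 0 of 16, with a median of 0.00. In the list of head shaping, manchette and head-tail coupling 5 of 33 were called, the X-linked Cylc1 and Actrt1 higher, and Oaz3, Tubb4b (-0.42) and Tuba4a (-0.92) lower, the last a pair of tubulin genes. In the list of acrosome and egg binding 3 of 14 were called, Spaca7 (0.75), Adam5 (0.45) and Adam32 (0.99), all higher.

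Calls in lists of regulators and enzymes are set against the 8.52% of all tested genes called in either direction. Kinases and phosphatases and testis serine proteases lay above that share, on few tested genes. Kinases and phosphatases had 3 of 21, with the testis kinase gene Tssk1 (0.59) and Ppp1r2-ps7 (0.80) higher and Stk35, with 3058 and 1097 UMIs, lower (-0.76). Testis serine proteases had 3 of 9, Prss37 (0.72), Prss52 (1.18) and Prss55 (0.48). Cystatins had 1 of 3, Cst13. It is a gene of the rule (set F), so the cystatin count is a description and is not set against the 8.52%. The Iqcf family had 0 of 5, ubiquitin and proteasome 0 of 33, spermatid transcription regulators 0 of 10, splicing factors 0 of 5, heat shock proteins 0 of 17, apoptosis 0 of 3 and sperm ion channels and transporters 0 of 3. Most of these lists had too few tested genes for 0 calls to be told from 8.52%. Over members with at least 10 UMIs, splicing factors had a median of 0.98 with 67 of 75 above 0, against 0.19 over all genes, but only 5 of them were detected widely enough to be tested. Of 63 tested ribosomal protein genes, 3 were called higher and 3 lower, but their median was 0.23, against 0.005 over all tested genes. Of 83 with at least 10 UMIs, 70 (84.3%) lay above 0, against 62.0% of all genes. Ribosomal protein UMIs made up 2.28% of the total in WT members and 2.54% in KO members. The 6 genes that the study picked from these samples for spermatogenesis, H1fnt, Tnp1, Akap4, Iqcf1, Tssk6 and Prm2, had no call and a median of -0.18, and as the study chose them on these libraries their direction is not independent evidence. By RT-qPCR of testis tissue the study reported Akap4, Prm2, Tssk6 and H1fnt as higher in KO. Its discussion instead describes spermatogenesis genes as lower in KO, and takes Akap4, Prm2 and Tssk6 as examples. Of the genes that RT-qPCR gave as higher, Akap4 alone lay above 0 in the members, but whole tissue mixes all stages and cell types. Tssk6 is a gene of the rule (set J), so its value is a description.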

How the data were processed

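Testis cells were profiled with the GEXSCOPE kit, 1 library per genotype. Per the methods and the submitters' processing notes, the authors took barcodes and UMIs from read 1, trimmed with fastp, aligned with STAR 2.5.3a, and counted with featureCounts 1.6.2. The deposited values are raw counts of UMIs per gene and barcode, without normalization. The methods name GRCh38, a human build, while the symbols are those of the mouse, so positions were taken by symbol from GENCODE M21 (GRCm38), in which 35502 of 36547 symbols were found. A gene listed in 1 table only was set to 0 in the other.

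Scripts ran under Python 3.11.15 (numpy 2.4.6, scipy 1.17.1) and gave membership, sums and intervals. Genotypes were not tested against each other, since each had a single library. Exact 95% intervals were Clopper-Pearson for shares and Poisson for sums, and ratios had the conditional interval of a pair of Poisson sums, with a sum of 0 set to 3 counts. The criterion was tested on simulated data. Doublets were kept, and Scrublet (scanpy 1.11.5) called 19 WT and 13 KO members.

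The members, the lists and the rule for named genes were chosen with earlier results of these data known. Named were list members with at least 10 UMIs, the 10 largest ratios in each direction, the 10 genes with the most UMIs, the 10 with the largest excess in members and the 10 most like Tnp2. Other X-linked genes, their autosomal relatives and genes near Alkbh5 were picked after their values had been seen. Alternatives changed the gate, the scoring, the margin, doublets, depth (cells thinned to 5000 UMIs, which left out 18 KO members), totals, kinds of member and thresholds. The alternative within members closest to J and all counts by chromosome were added after the data had been seen.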

Additional observations from a re-analysis of the deposited data

How the results depend on the processing

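No paired analysis was possible because each genotype has 1 library, and for the same reason no replicate could be left out. The KO over WT ratio of the member share stayed below 1 under all 7 alternatives, from 0.537 to 0.937, but 2 intervals reached 1. With no excluded marker allowed the WT share was 10.1% and the ratio 0.937 (0.80 to 1.09). With set H ahead by at least 0.25 the shares were 4.45% and 4.16% and the ratio 0.935 (0.766 to 1.14). With fewer than 3 excluded markers the KO share was 7.97% and the ratio 0.672, with z-scores within each library the shares were 13.2% and 8.70% and the ratio 0.657, and over all barcodes the KO share was 6.06% and the ratio 0.537. Genes called higher in KO numbered from 116 to 223 and X-linked ones from 52 to 65 over all alternatives, and genes called lower from 22 to 71. A CPM ratio of at least 2 in place of the size difference gave the 22 lower genes, of which 11 were among the 52, and z-scores within each library gave the 223 higher genes. Of the recomputed ratios of 34 of the named genes, 324 stayed within the counting interval of the reported value and 118 left it, and among these 34 no called gene changed sign. H3f3b, called higher and not among them, was at -0.27 in members closest to I. The Ybx1 ratio ranged from 2.46 to 3.85, that of Galnt10 from -6.16 to -3.64, and that of mt-Co1 from 0.54 to 2.54, while Hils1, not called, ranged from -0.18 to 0.36. The cause of these shifts was not tested.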

Other observations

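A few transcripts made up much of the RNA of the Tnp2-stage spermatids in both libraries. After Prm1, the most abundant were CT010467.1, with 5.11% of UMIs in WT and 5.16% in KO, Prm2, with 4.43% in WT, and Tnp2 itself. Smcp, a protein gene of the mitochondrial capsule, held 1.45% and 1.25%, and Eif1, a translation start factor gene, 0.638% and 0.591%. Dbil5 held 0.614% and 0.523%, and Mlf1 0.534% and 0.649%, which was the largest relative excess in KO among the 10 most abundant genes.

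Genes with the largest excess in this stage over other stages were level between genotypes in several cases. Tfam was at 1594 CPM in WT and 1572 CPM in KO (log2 ratio -0.02), and Cby3 had 1839 and 1099 UMIs (-0.03). Hmgb1-rs17, a near copy of another gene, which makes its counts uncertain, was at 945 and 1041 CPM (0.14). Tfam, Cby3 and Hmgb1-rs17 followed Tnp2, which selected the members, over the stages (r = 0.992, 0.992 and 0.995). Their near-equal levels are therefore not independent of the selection.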
